A study of Mus musculus with 6 samples.

Results

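Messages of 9 genes that are abundant in brain regions beside the hippocampus were followed in hippocampal RNA of mice with and without an Rbfox1 transgene. Prkcd, Tcf7l2, Lhx9 and Lef1 are markers of the thalamus, and Drd1, Drd2, Adora2a, Ppp1r1b and Rgs9 are markers of the striatum. They were found in the isoform table by name, as all rows whose transcript name without its closing number is 1 of these symbols, which gave 9 of 53354 gene symbols and 70 of 133944 isoforms. They were selected on their expected counts in these same mice, which had been looked at beforehand, so their levels are given as a description.

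Hippocampal RNA was sequenced with 1 library per mouse for 3 mice of the N-cre genotype and 3 of the N-cre;Fox1 genotype, which were 3 months old and are labelled as C57BL/6. N-cre mice carry Nes-Cre alone, in which the nestin promoter drives the Cre recombinase in the precursors of neurons and glia. N-cre;Fox1 mice carry Nes-Cre and 1 R26-Rbfox1 flox allele, an Rbfox1 cDNA behind the CAG promoter in the Gt(ROSA)26Sor locus, which Cre switches on by removing a STOP cassette between loxP sites. Both genotypes therefore carry Cre, and no mouse with the floxed allele alone was compared. The allele was made by targeting, so its N-cre;Fox1 carriers share 1 insertion site, and the labels do not say whether the mice of a genotype were littermates. Rbfox1 encodes an RNA-binding splicing factor of neurons.

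The hippocampus lies directly above the thalamus, and the choroid plexus of the ventricle is attached along its fimbria, while the striatum lies in front of it. Thalamic relay neurons are known for Prkcd, a protein kinase, and for Tcf7l2, Lef1 and Lhx9, which encode transcription factors that act in the development of the thalamus. Spiny projection neurons of the striatum come in one class with the dopamine receptor Drd1 and another with the dopamine receptor Drd2 and the adenosine receptor Adora2a, and both carry Ppp1r1b (DARPP-32), a phosphatase inhibitor that relays dopamine signals, and Rgs9, which shortens the signals of receptors coupled to G proteins. None of the 9 is silent elsewhere. Drd2 is known from the mossy cells of the dentate hilus, Lef1 from brain endothelium, Tcf7l2 from newly formed oligodendrocytes, and Ppp1r1b from choroid plexus.

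The expected counts, the read pairs that RSEM assigned to an isoform, summed to 40463587 to 62141336 per mouse. Rbfox1 itself ranged over 273 to 288 CPM (counts scaled by library size) in the N-cre group and 256 to 300.5 CPM in the N-cre;Fox1 group, which overlapped. Its isoform Rbfox1-202 was at 33.1, 33.6 and 35.5 CPM in N-cre and at 45.9, 40.9 and 44.4 CPM in N-cre;Fox1 replicates 1, 2 and 3. On this isoform the genotypes did not overlap, with an adjusted p of 0.623 in edgeR. The same held for 11.5% of all isoforms tested, and the other Rbfox1 isoforms are not given here. Of 18924 genes tested, 5 (0.0264%) passed an adjusted p of 0.05 with the quasi-likelihood test of edgeR, and 1172 passed that level before adjustment. In 2304 of the 18924 (12.2%) the CPM of the genotypes did not overlap in either direction. The libraries of N-cre replicate 3 and N-cre;Fox1 replicate 2 stood apart in choroid plexus genes. The sum of 10 such genes was 2308 and 5201 CPM there and 31.0 to 41.6 CPM in the other 4 mice.

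Compared per length, as TPM (counts divided by isoform length and scaled to the same total in every mouse), the 9 genes spanned the lower to upper range of the hippocampal transcriptome. Ppp1r1b was at a mean of 69.6 TPM, above 85.5% of the genes tested, and Adora2a was at 1.46 TPM, above 21.3% of them. Prkcd followed Ppp1r1b at 37.8 TPM, and Ppp1r1b was above it in 6 of 6 mice, although its lowest value of 49.2 TPM lay under the highest Prkcd value of 51.0 TPM. Rgs9 at 11.5 TPM and Lhx9 at 8.19 TPM came next, and the ranges of Prkcd, Rgs9 and Lhx9 each lay clear of the next gene in this order. Lef1 (3.18 TPM), Drd2 (2.94 TPM), Drd1 (2.78 TPM) and Tcf7l2 (2.46 TPM) formed a group of low genes whose neighbours overlapped and whose order was not the same in every mouse. Lef1 was above Drd2 in 5 of 6 mice, Drd2 above Drd1 in 4 of 6, Drd1 above Tcf7l2 in 4 of 6 and Tcf7l2 above Adora2a in 5 of 6. For scale, the dentate granule cell factor Prox1 was at 22.9 TPM and the CA1 gene Wfs1 at 106 TPM.

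**Figure D1:**
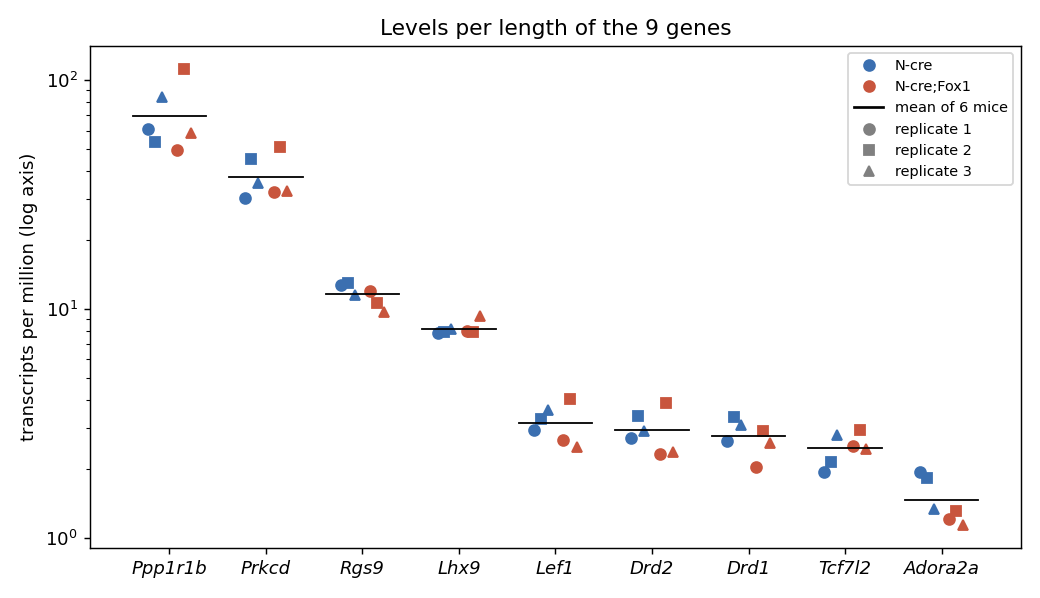
TPM (vertical, log axis) of the 9 genes (horizontal, ordered by mean) in each mouse, with blue points for N-cre, red points for N-cre;Fox1, marker shapes for replicates and a black line at the mean of 6 mice. Ppp1r1b and Prkcd sit at means of 69.6 and 37.8, and Lef1, Drd2, Drd1 and Tcf7l2 lie close together between 3.18 and 2.46.

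Among the thalamic genes, Prkcd (ENSMUSG00000021948.17, GRCm38 chr14:30595354-30626210, minus strand) encodes protein kinase C delta. It was at 27.8, 43.3 and 34.9 CPM in N-cre replicates 1, 2 and 3 and at 30.0, 44.4 and 27.9 CPM in N-cre;Fox1 replicates 1, 2 and 3. Replicate 2 of each genotype was highest, and the genotypes overlapped throughout. The means were 35.3 ± 7.76 CPM in N-cre and 34.1 ± 8.99 CPM in N-cre;Fox1 mice (SD, n = 3 each), and the fitted log2 fold change of N-cre;Fox1 over N-cre was -0.05 (SE 0.271). In bulk tissue of this kind, fewer cells of a type and less RNA per cell cannot be told apart.

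Tcf7l2 (ENSMUSG00000024985.19, chr19:55741820-55933654, plus strand), a transcription factor of the Wnt pathway, was at 2.33, 2.55 and 3.08 CPM in N-cre and 2.88, 2.93 and 3.11 CPM in N-cre;Fox1 replicates 1, 2 and 3. N-cre replicates 1 and 2 were lowest, and N-cre replicate 3 lay within the range of the N-cre;Fox1 mice. The fitted log2 fold change was 0.17 (SE 0.142), with means of 2.65 ± 0.388 and 2.98 ± 0.122 CPM (SD, n = 3 each). Since Tcf7l2 is also a gene of newly formed oligodendrocytes, 3 markers of these cells were read beside it. Bcas1, a gene of differentiating oligodendrocytes, was at 129, 133 and 138 CPM in N-cre and 185, 167 and 188 CPM in N-cre;Fox1 mice (log2 fold change 0.43, SE 0.0483, edgeR adjusted p = 0.0155). It was the 1 of 3 past the threshold, while Enpp6 (8.53, 7.88 and 8.24 against 6.36, 7.57 and 7.29 CPM) and Itpr2 (22.9, 21.7 and 22.4 against 24.5, 23.8 and 23.8 CPM) were not. The Bcas1 call was lost when N-cre replicate 1, 2 or 3 or N-cre;Fox1 replicate 3 was left out, with adjusted p of 0.0737, 0.304, 0.119 and 0.127. The part of these cells in the Tcf7l2 level was not tested. The gene overlaps Ppnr on the same strand.

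Lef1 (ENSMUSG00000027985.14, chr3:131110471-131224356, plus strand), a Wnt pathway factor related to Tcf7l2, was at 4.05, 4.29 and 4.61 CPM in N-cre and 3.48, 5.59 and 3.67 CPM in N-cre;Fox1 mice. N-cre;Fox1 replicate 2 was the highest of all 6 and the other 2 mice of this genotype were the lowest. The fitted log2 fold change was -0.02 (SE 0.178). Of the endothelial genes Cldn5, Flt1, Cdh5, Pecam1 and Slco1a4, 0 of 5 were called in edgeR, and 0 had an unadjusted p under 0.05. Their sum was 141, 145 and 157 CPM in N-cre and 139, 169 and 155 CPM in N-cre;Fox1 mice, with N-cre;Fox1 replicate 2 again highest, and their part in the Lef1 level was not tested. Lef1 overlaps Gm42449 on the same strand and Gm43352 on the other.

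Lhx9 (ENSMUSG00000019230.14, chr1:138825186-138848577, minus strand), a LIM homeodomain transcription factor, was the steadiest of the 9. It was at 14.9, 14.7 and 15.1 CPM in N-cre and 14.96, 14.4 and 17.3 CPM in N-cre;Fox1 mice, and only N-cre;Fox1 replicate 3 stood above the rest. The fitted log2 fold change was 0.06 (SE 0.0773), with means of 14.9 ± 0.213 and 15.6 ± 1.56 CPM (SD, n = 3 each). The highest Lhx9 mouse was 1.21 times the lowest, against 1.599 for Prkcd and 1.61 for Lef1. The 2 mice with the most Prkcd were the 2 with the least Lhx9.

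**Figure D2:**
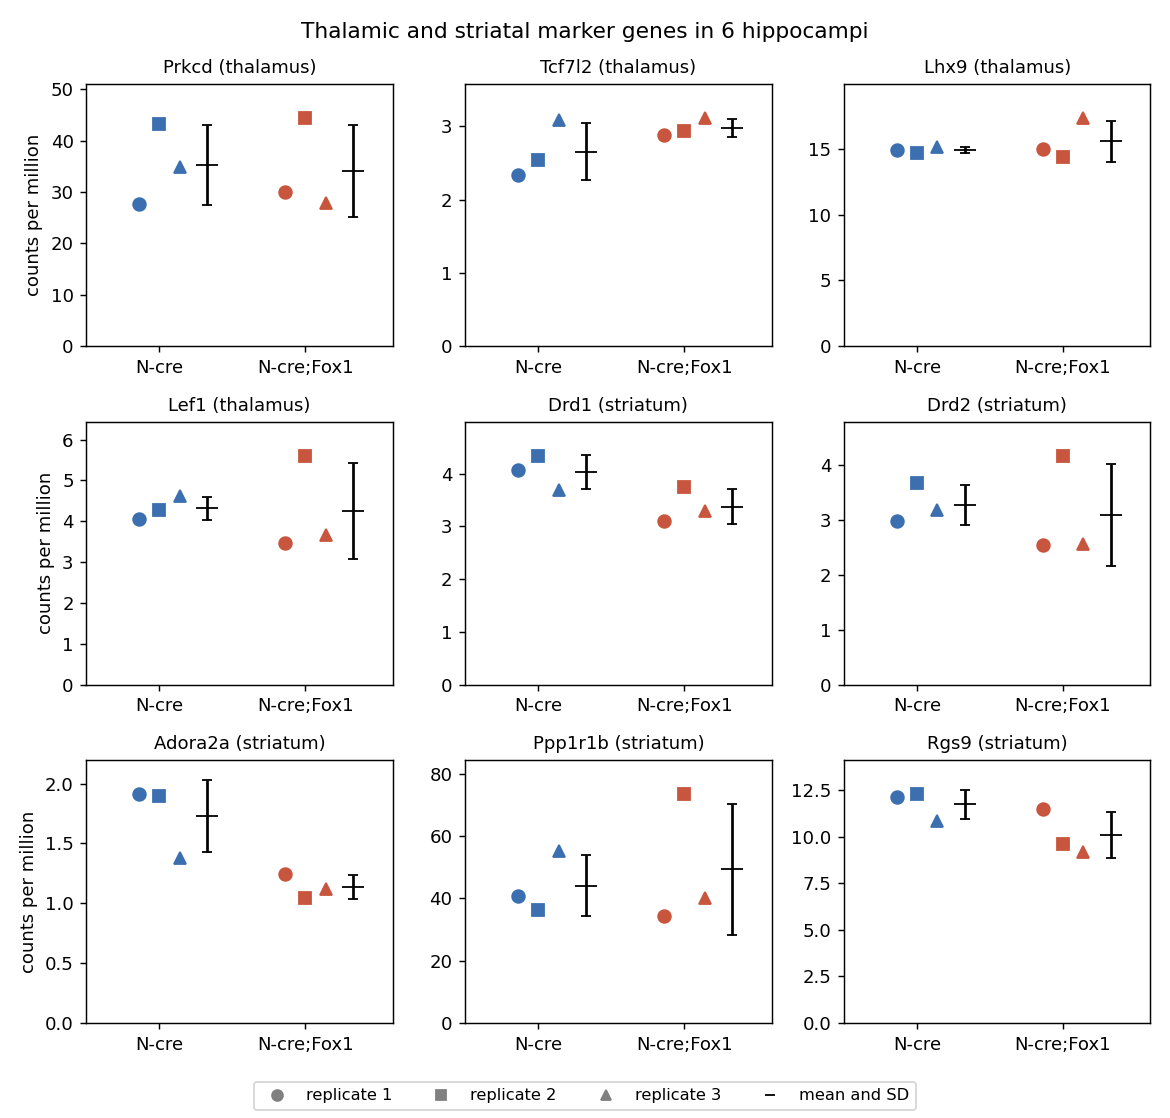
CPM (vertical, linear, from 0) of each gene in 3 N-cre (blue) and 3 N-cre;Fox1 (red) mice, with marker shapes for replicates 1 to 3 and the mean and SD of each genotype in black beside the points. In Adora2a the highest N-cre;Fox1 mouse (1.25) lies under the lowest N-cre mouse (1.38), and in the other 8 genes the genotypes overlap.

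Of the striatal genes, the dopamine receptor Drd1 (ENSMUSG00000021478.6, chr13:54051183-54055705, minus strand) was at 4.06, 4.33 and 3.70 CPM in N-cre and 3.10, 3.74 and 3.28 CPM in N-cre;Fox1 mice. The genotypes overlapped by a narrow margin, between N-cre replicate 3 and N-cre;Fox1 replicate 2. These 2 mice are those with the high choroid plexus genes. The means were 4.03 ± 0.317 and 3.38 ± 0.329 CPM (SD, n = 3 each), and the fitted log2 fold change was -0.26 (SE 0.125). Without these 2 mice, a setting chosen after the data were seen, it was -0.39. For Drd1 these 2 are the lowest N-cre and the highest N-cre;Fox1 mouse, so leaving them out had to widen the difference.

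The receptors of the other class of spiny neurons did not move together. Drd2 (ENSMUSG00000032259.8, chr9:49340627-49408177, plus strand) was at 2.98, 3.68 and 3.18 CPM in N-cre and 2.55, 4.17 and 2.57 CPM in N-cre;Fox1 mice, so that the N-cre;Fox1 mice held both the highest value and the lowest. Adora2a (ENSMUSG00000020178.6, chr10:75316877-75334784, plus strand), an adenosine receptor, was at 1.91, 1.90 and 1.38 CPM in N-cre and 1.25, 1.05 and 1.12 CPM in N-cre;Fox1 mice. Every N-cre;Fox1 mouse lay below every N-cre mouse in Adora2a, the case in 1 of the 9 genes and in 6.11% of all genes tested. None of the other 8 was without overlap in either direction. Its fitted log2 fold change was -0.61 (SE 0.187, edgeR adjusted p = 0.693), and that of Drd2 was -0.08 (SE 0.200). In N-cre;Fox1 replicate 2, Drd2 was at its highest and Adora2a at its lowest of all mice. The mossy cell genes Calb2 (24.97, 42.1 and 42.6 CPM in N-cre against 29.3, 41.2 and 39.0 CPM in N-cre;Fox1 mice) and Csf2rb2 (5.10, 6.34 and 6.07 against 4.70, 5.25 and 5.65 CPM) were present in all mice, with 0 of 2 called in edgeR and 0 with an unadjusted p under 0.05, and the part of mossy cells in the Drd2 level was not tested.

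Ppp1r1b (ENSMUSG00000061718.12, chr11:98348404-98357796, plus strand) varied most of the 9. It was at 40.9, 36.4 and 55.1 CPM in N-cre and 34.5, 73.4 and 40.2 CPM in N-cre;Fox1 mice. N-cre;Fox1 replicate 2 and then N-cre replicate 3 were highest, which is also the order of the choroid plexus sum. The fitted log2 fold change was 0.17 (SE 0.379), and -0.05 without both mice, which leaves 40.9 and 36.4 against 34.5 and 40.2 CPM. The gene overlaps 1700003D09Rik on the other strand, and the strand setting of the counting is not given in the sources used here.

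Rgs9 (ENSMUSG00000020599.13, chr11:109225355-109298129, minus strand), whose protein speeds the shut-off of G protein signals, was at 12.1, 12.3 and 10.9 CPM in N-cre and 11.5, 9.61 and 9.17 CPM in N-cre;Fox1 mice. N-cre;Fox1 replicate 1 lay above N-cre replicate 3, and the other 2 N-cre;Fox1 mice were lowest. The fitted log2 fold change was -0.22 (SE 0.0986, edgeR adjusted p = 0.799).

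Counted together, 0 of the 9 genes passed an adjusted p of 0.05 with edgeR, DESeq2 or limma-voom, beside 0.0264% of all genes in edgeR. At an unadjusted p under 0.05 there were 2 in edgeR (Adora2a and Rgs9), beside 1172 of all 18924 genes tested, 1 in DESeq2 and 2 in limma-voom. The 9 were chosen with these values in view, so these numbers are a description and no support for a difference. The median log2 fold change of the 4 thalamic genes was 0.02 and that of the 5 striatal genes -0.22, with 1 of these 5 fitted higher and 4 fitted lower, beside a median of 0.00 over all genes tested. Of the spread over mice, the ratio of the highest to the lowest mouse was 2.13 for Ppp1r1b, 1.82 for Adora2a, 1.64 for Drd2, 1.40 for Drd1 and 1.34 for both Tcf7l2 and Rgs9, beside a median of 1.16 over genes with at least 1 CPM. The ratio of Ppp1r1b was above that of 97.2% of these genes and the ratio of Lhx9 above that of 60.8%.

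**Figure D3:**
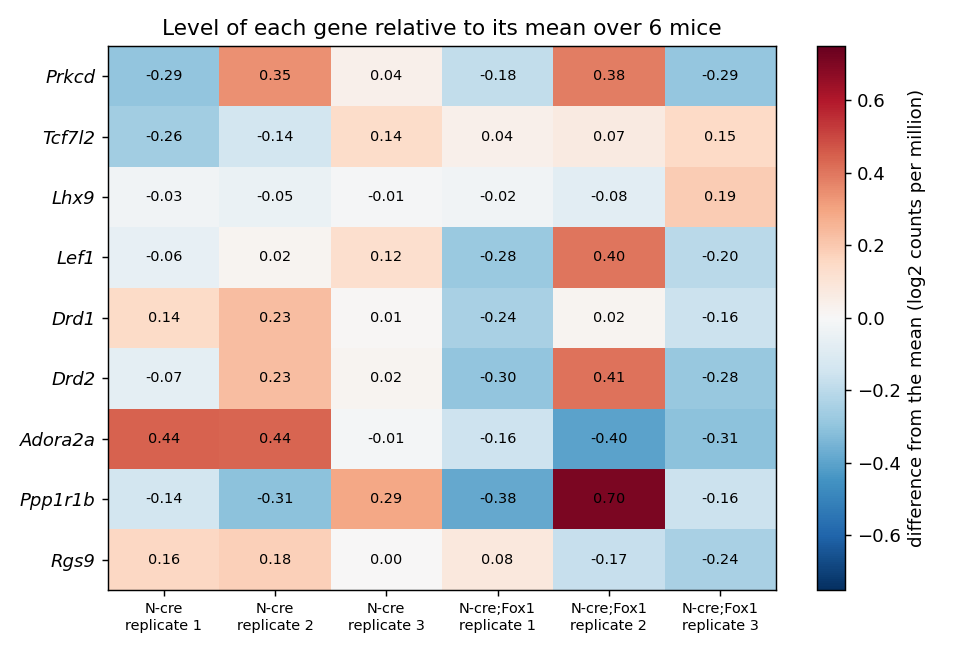
Difference of each gene (vertical) in each mouse (horizontal) from its own mean over 6 mice, in log2 CPM, written in each cell and coloured from blue (lower) to red (higher). N-cre;Fox1 replicate 2 is above the mean in Ppp1r1b (0.70), Drd2 (0.41), Lef1 (0.40) and Prkcd (0.38) and below it in Adora2a (-0.40) and Rgs9 (-0.17).

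The differences between mice ran across the genotypes rather than with them in several genes. N-cre;Fox1 replicate 2 was highest in Prkcd, Lef1, Drd2 and Ppp1r1b, which belong to both regions, and lowest in Lhx9 and Adora2a. Summed over the 4 thalamic genes the CPM was 49.1, 64.8 and 57.7 in N-cre and 51.3, 67.3 and 52.0 in N-cre;Fox1 mice, with replicate 2 highest in each genotype. Over the 5 striatal genes the sum was 62.0, 58.5 and 74.2 in N-cre and 52.9, 92.0 and 56.4 in N-cre;Fox1 mice, most of it Ppp1r1b.

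Other genes of the same regions were read beside the 9. Of 12 further thalamic genes 10 were tested, with 0 called by edgeR and 1 at an unadjusted p under 0.05, 5 fitted higher and 5 lower, and a median log2 fold change of -0.06. The highest 3 were Ntng1 (35.2 CPM), which encodes a membrane-bound netrin, the scaffold gene Amotl1 (31.6 CPM) and the nuclear receptor gene Rora (26.7 CPM). Slc17a6, the vesicular glutamate transporter of the thalamus, was named after its values were seen. It was at 21.2, 20.7 and 18.1 CPM in N-cre and 16.2, 17.7 and 18.0 CPM in N-cre;Fox1 mice (log2 fold change -0.21, SE 0.0735, edgeR adjusted p = 0.769), without overlap. Ramp3 was likewise without overlap (4.32, 3.89 and 3.92 against 3.74, 3.60 and 2.93 CPM). These were 2 of the 10 tested, both with N-cre;Fox1 lower, beside 6.11% of all genes tested. The defining thalamic factors Gbx2 and Shox2 were near 0, at up to 0.0372 and 0.0740 CPM.

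Zic1, a zinc finger factor of the medial thalamus, habenula and septum that was named after its values were seen, had the widest spread of the thalamic list. It was at 12.5, 32.8 and 27.8 CPM in N-cre and 8.66, 38.6 and 11.0 CPM in N-cre;Fox1 mice. The 3 mice with the most Zic1 were also the 3 with the most Prkcd (43.3, 34.9 and 44.4 CPM) and the most Lef1 (4.29, 4.61 and 5.59 CPM). In these 3 mice Drd2 was highest as well, at 3.68, 3.18 and 4.17 CPM. The thalamic genes Tcf7l2 and Lhx9 did not follow Zic1. Both were highest in N-cre;Fox1 replicate 3 (3.11 and 17.3 CPM), and Lhx9 was lowest in replicate 2 of each genotype. The 12 further thalamic genes, Zic1 included, summed to 167, 190 and 184 CPM in N-cre and 153, 211 and 158 CPM in N-cre;Fox1 mice. This sum too was highest in the 3 mice with the most Zic1. Without Zic1 the other 11 summed to 154, 157 and 156 CPM in N-cre and 144, 173 and 147 CPM in N-cre;Fox1 mice, so that N-cre replicates 2 and 3 lay within 3 CPM of N-cre replicate 1. The part of thalamic tissue in these levels was not tested. Habenular genes summed to 33.4 to 38.5 CPM, of which Nwd2 (30.1 CPM) was most, followed by Tac2 (2.41 CPM) and Chrna3 (1.55 CPM). The habenular factor Pou4f1 was at up to 0.0971 CPM. Of 7 habenular genes 6 were tested, with 0 called in edgeR and 0 at an unadjusted p under 0.05.

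Of 17 further striatal genes all 17 were tested, with 0 called by edgeR and 1 at an unadjusted p under 0.05, 7 fitted higher and 10 lower, and a median log2 fold change of -0.04. Syndig1l, named after its values were seen, was the 1 gene without overlap, beside 6.11% of all genes tested with N-cre;Fox1 lower. It was at 5.41, 5.49 and 6.19 CPM in N-cre and 4.65, 5.08 and 4.40 CPM in N-cre;Fox1 mice. The highest 3 were the G protein subunit gene Gng7 (210.5 CPM), the adenylyl cyclase gene Adcy5 (146 CPM) and the phosphodiesterase gene Pde10a (71.4 CPM), which act in cyclic AMP signalling. The list summed to between 601 and 611 CPM per N-cre mouse and between 571 and 607 CPM per N-cre;Fox1 mouse. The striatal factors Six3 and Isl1 were low and unequal between mice. Six3 was at 0.0324, 0.715 and 1.33 CPM in N-cre and 0.0558, 2.44 and 0.339 CPM in N-cre;Fox1 mice, and Isl1 was at 0.0486, 0.737 and 0.469 against 0.0186, 0.635 and 0.152 CPM. Both were higher in the 3 mice that had the most Drd2 than in the other 3. The striatal genes Drd1, Adora2a, Rgs9 and Ppp1r1b did not share this division. Each had N-cre replicate 1 among its highest 3 mice, at 4.06, 1.91, 12.1 and 40.9 CPM.

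**Figure D4:**
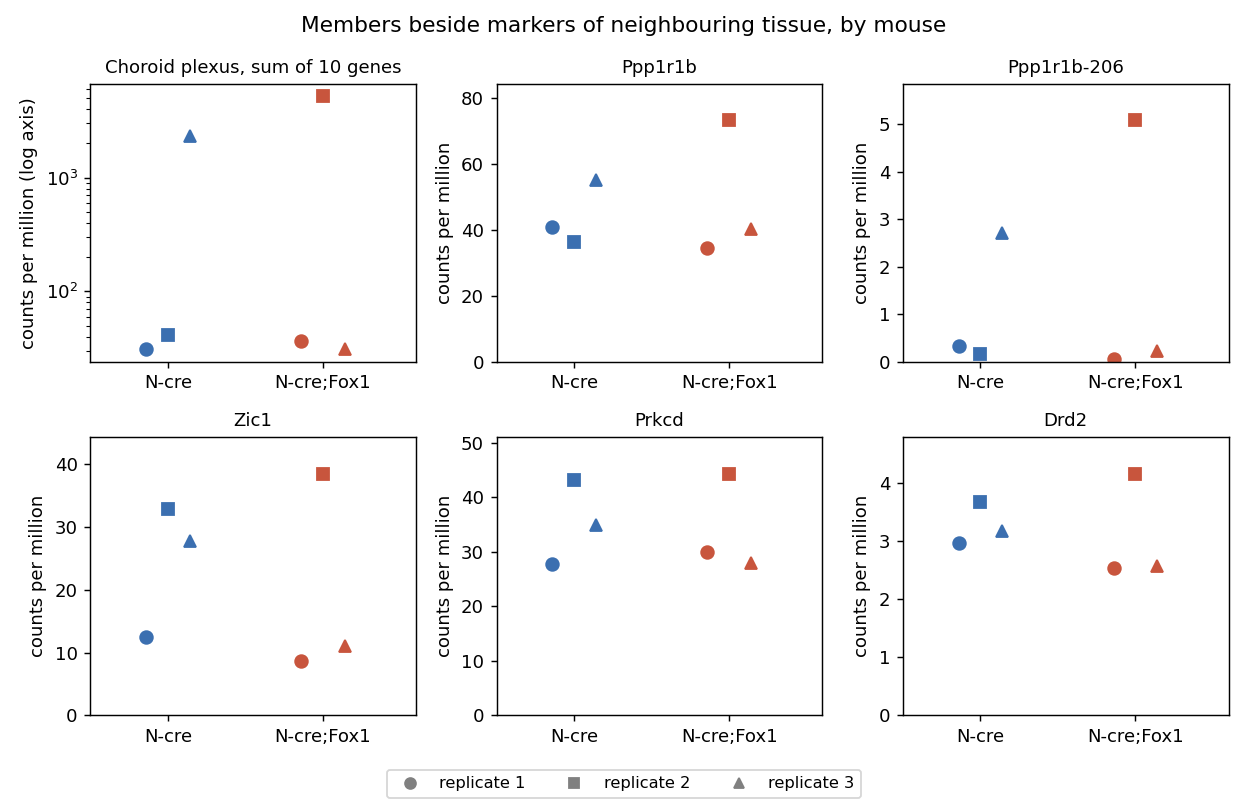
CPM (vertical, from 0 except for the log axis of the choroid plexus panel) by genotype and mouse for the sum of 10 choroid plexus genes, Ppp1r1b, its isoform Ppp1r1b-206, Zic1, Prkcd and Drd2. N-cre replicate 3 (triangle) and N-cre;Fox1 replicate 2 (square) are highest in the first 3 panels, N-cre;Fox1 replicate 2 is highest in Zic1 (38.6), Prkcd (44.4) and Drd2 (4.17), and N-cre replicate 2 (square) follows in Zic1, Prkcd and Drd2.

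Choroid plexus genes and Ppp1r1b were highest in the same 2 mice. In N-cre replicates 1 and 2 and N-cre;Fox1 replicates 1 and 3 these 10 genes summed to 31.1, 41.6, 36.4 and 31.0 CPM. Ppp1r1b was at 40.9, 36.4, 34.5 and 40.2 CPM in those mice, in another order. All 10 of the list were highest in N-cre;Fox1 replicate 2 and next in N-cre replicate 3, and Ttr, which encodes the carrier transthyretin, was at 2093 and 4749 CPM there and at 5.16 to 12.7 CPM in the other 4. In edgeR 0 of the 10 were called between the genotypes and 0 had an unadjusted p under 0.05, with a median log2 fold change of 1.10. Kl and Clic6 were the next highest of the list, at means of 51.5 and 20.2 CPM. The part of the choroid plexus in the Ppp1r1b level was not tested.

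The neocortex, which covers the hippocampus, gave 5 genes, with 0 called in edgeR and 0 at an unadjusted p under 0.05, and the highest was Tshz2 at a mean of 62.9 CPM, followed by Fezf2 (43.8 CPM) and Rorb (19.5 CPM). The 9 hippocampal genes were present in all 6 mice, with Fibcd1 at 198.5, Wfs1 at 167 and Prox1 at 76.5 CPM on average, and their sum lay between 606 and 642 CPM in the N-cre group and between 546 and 631 CPM in the N-cre;Fox1 group. In edgeR 0 of these 9 were called and 2 had an unadjusted p under 0.05. Wfs1 was without overlap with N-cre;Fox1 lower (217, 180 and 166 against 158, 159 and 124 CPM, log2 fold change -0.35). Nectin3 and the neocortical gene Rspo1, both named after their values were seen, were without overlap with N-cre;Fox1 higher. Over all genes tested 12.2% were without overlap in either direction. Over the 70 genes of the 9 lists, Bcas1 was the single call in edgeR, and also in DESeq2 and limma-voom.

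The genes whose level over the 6 mice was most like that of the 9 were looked for among 14985 genes with at least 1 CPM. For the mean profile of the 4 thalamic genes they were N4bp2 (Pearson r = 0.998), Frmpd4 (0.995), Alg10b (0.994), Dock5 (0.993) and Sox5 (0.988). N4bp2 was at 9.37, 11.4 and 11.8 CPM in N-cre and 9.74, 13.0 and 10.5 CPM in N-cre;Fox1 mice. For the 5 striatal genes they included 6430571L13Rik (0.992), Casz1 (0.990), Gm15496 (0.979) and Mrnip (0.975). Casz1, a zinc finger transcription factor, was at 3.88, 4.29 and 3.80 CPM in N-cre and 2.99, 4.15 and 2.94 CPM in N-cre;Fox1 mice, lowest in the 2 N-cre;Fox1 mice that were also lowest in Drd2. These are the highest of 14985 values over 6 mice that share their libraries, and they describe likeness alone.

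Below the level of the gene, 57 of the 70 isoforms had a count above 0 in some mouse, 33 had a mean count of at least 10, and 35 passed the filter on low counts. Of these 35, 0 passed an adjusted p of 0.05 with edgeR, beside 0 of 50556 isoforms (0%), and 4 had an unadjusted p under 0.05. Lhx9-205 is 1 of these 4. The share of all isoforms at that unadjusted level is not given here, so the 4 are not read as a result. DESeq2 called 1 of them (Lhx9-205) and limma-voom 0. Lhx9-205 passed the filter through the N-cre mice alone, as it was at 0 in every N-cre;Fox1 mouse. Its call and its place in these counts are therefore not read as a result. In 6 of the 35 the CPM of the genotypes did not overlap, beside 11.5% of all isoforms tested. With N-cre;Fox1 on the higher side these were Prkcd-206, Prkcd-211 and Lhx9-203, and with N-cre;Fox1 on the lower side Lhx9-205, Adora2a-201 and Lef1-203. Where isoforms share exons, RSEM assigns the reads between them by estimate, and 11 of the 35 were at 0 in at least 1 mouse.

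Lhx9 is the clearest case, because its isoforms differ at both ends of the coding sequence. The ends below carry this difference. They were read from GRCm38 on the minus strand, 5′ to 3′, with the coding bases particular to each alternative in capitals and the adjoining 15 coding bases that the forms share in lower case. The distal start (Lhx9-203, capitals at chr1:138847176-138847203) and the proximal start (Lhx9-201, capitals at chr1:138841927-138841981) each open with the start codon and run into the same shared bases. The distal start lies on an exon of its own, while the proximal one extends the shared exon directly.
Distal start: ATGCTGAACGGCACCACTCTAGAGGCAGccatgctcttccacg
Proximal start: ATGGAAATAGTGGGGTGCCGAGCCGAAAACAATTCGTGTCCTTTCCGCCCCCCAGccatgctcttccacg
At the other end, the coding part of the distal last exon (Lhx9-203, chr1:138828657-138828710, 54 bases) and that of the proximal one (Lhx9-202, chr1:138831370-138831624, 255 bases) follow the same splice donor, and the proximal form adds the closing stretch of the homeodomain, which binds DNA.
Distal end: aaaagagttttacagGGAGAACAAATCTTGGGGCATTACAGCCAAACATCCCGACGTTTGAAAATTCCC
Proximal end: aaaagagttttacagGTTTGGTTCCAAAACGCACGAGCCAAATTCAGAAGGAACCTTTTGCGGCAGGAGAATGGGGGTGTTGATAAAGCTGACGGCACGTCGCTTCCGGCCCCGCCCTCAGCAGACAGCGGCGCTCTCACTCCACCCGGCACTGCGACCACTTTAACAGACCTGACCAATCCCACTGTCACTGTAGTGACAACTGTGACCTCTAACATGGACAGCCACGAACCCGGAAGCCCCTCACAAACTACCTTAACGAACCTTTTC

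The use of the ends was even across mice. Isoforms with the distal end (Lhx9-201, Lhx9-203 and Lhx9-205) took 75.0%, 78.1% and 74.5% of the Lhx9 counts in N-cre and 74.1%, 77.3% and 76.6% in N-cre;Fox1 mice. The means were 75.9% ± 1.96 and 76.0% ± 1.67 (SD, n = 3 each). Nearly all of the rest had the proximal end (Lhx9-202, between 20.4% and 24.7% over the 6 mice), so that about 3 of 4 Lhx9 counts were assigned to forms without the closing part of the homeodomain.

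The use of the starts varied more, and by mouse rather than by genotype. The proximal start (Lhx9-201 with traces of Lhx9-204 and Lhx9-207) took 49.7%, 32.8% and 44.3% in N-cre and 48.0%, 31.2% and 42.5% in N-cre;Fox1 mice. Replicate 2 was lowest in each genotype, and these are the 2 mice with the most Prkcd and the most Zic1. The distal start (Lhx9-202, Lhx9-203 and Lhx9-205) was highest in both, at 66.3% and 66.8%, and at 49.7% to 55.7% in the other 4 mice.

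Lhx9-205 and Lhx9-203 were the Lhx9 isoforms whose genotypes did not overlap, and neither passed the test in edgeR. Lhx9-205 was at 206, 131 and 82.3 expected counts in N-cre replicates 1, 2 and 3 and at 0 in all 3 N-cre;Fox1 mice. Lhx9-203 was at 27.7, 170 and 103 expected counts in N-cre and 210, 389 and 349 in N-cre;Fox1 mice, in none of which it was below an N-cre mouse. Lhx9-205 passed the filter on low counts through the N-cre mice alone, so no fold is given for it.

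These 2 isoforms are nearly the same molecule. They share 4551 bases and the same coding sequence of 963 bases, and Lhx9-205 has 82 bases more, all outside the coding sequence. Added up, they took 25.4%, 45.8% and 30.2% of the Lhx9 counts in N-cre and 26.1%, 46.4% and 34.1% in N-cre;Fox1 mice. The means of 33.8% ± 10.7 and 35.5% ± 10.2 (SD, n = 3 each) overlapped, and replicate 2 was highest in each genotype. Only reads that touch these 82 bases or the junctions beside them can tell the 2 isoforms apart, and the reads were not analysed here.

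**Figure D5:**
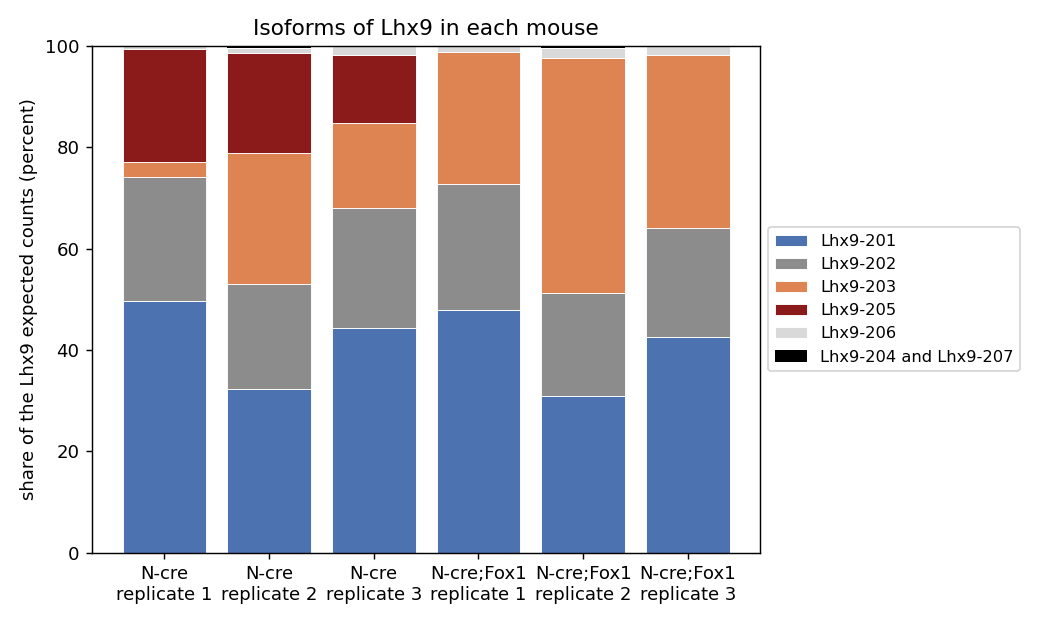
Share of the Lhx9 expected counts (vertical, percent, stacked to 100) that each isoform took in each mouse (horizontal). Lhx9-205 (dark red) takes 22.3%, 19.9% and 13.4% in the N-cre mice and 0% in the N-cre;Fox1 mice, while Lhx9-203 and Lhx9-205 together take 25.4% to 45.8% and 26.1% to 46.4%.

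In Prkcd the main coding form Prkcd-207 (2022 coding bases) took 60.8%, 78.1% and 74.0% of the counts in N-cre and 64.8%, 64.0% and 57.8% in N-cre;Fox1 mice. The 6 isoforms annotated as noncoding took 23.5%, 16.2% and 17.0% against 22.6%, 23.4% and 26.5%. Among them Prkcd-206 and Prkcd-211, which both retain an intron, did not overlap. Prkcd-211 was at 1.54, 1.5004 and 1.11 CPM in N-cre and 2.33, 2.42 and 2.01 CPM in N-cre;Fox1 mice, and Prkcd-206 at 1.41, 1.41 and 1.04 against 1.71, 2.25 and 1.71 CPM. Their adjusted p in edgeR was 0.945 for Prkcd-211 and 0.990 for Prkcd-206, and a change in their share of the gene was not tested.

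Of the transcription factors, Tcf7l2 had 22 isoforms, of which 7 were at 0 in every mouse and 5 were tested, 4 of them with a mouse at 0. The highest, Tcf7l2-209, was at 81.5, 54.4 and 29.2 expected counts in N-cre and 19.3, 36.4 and 68.5 in N-cre;Fox1 mice. The counts of single Tcf7l2 isoforms were therefore too low and too variable to order the genotypes. Lef1-201, the longest coding form of Lef1 (1191 coding bases), took 65.4%, 69.0% and 24.7% in N-cre and 73.1%, 63.7% and 69.0% in N-cre;Fox1 mice, and N-cre replicate 3 stood apart. Lef1-203, with 993 coding bases, was at 41.9, 38.9 and 54.1 expected counts in N-cre and 20.5, 32.1 and 0 in N-cre;Fox1 mice.

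The receptors gave few forms. Drd2 had 1 isoform in the table, with 1332 coding bases, so that the long and short forms of its receptor could not be told apart. Adora2a-201 took 90.0% to 98.1% of the Adora2a counts in the 6 mice, at 114, 83.4 and 54.8 expected counts in N-cre and 65.3, 54.9 and 63.5 in N-cre;Fox1 mice. In expected counts, before depth is taken into account, the genotypes overlapped. Drd1-201 and Drd1-202 share 3526 bases, and Drd1-202 has 50 more. Drd1-202 took all of the Drd1 counts in N-cre replicate 1 (251) and none in N-cre replicate 3 and N-cre;Fox1 replicate 2, where Drd1-201 was at 145 and 213. Together they made up 96.6% to 100% of the gene in every mouse, and the split between them followed no genotype.

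Ppp1r1b had a main form, Ppp1r1b-201 (582 coding bases), with 59.3%, 62.1% and 52.3% in N-cre and 67.5%, 53.0% and 64.8% in N-cre;Fox1 mice, and a form with a retained intron, Ppp1r1b-202, with 31.8% to 37.4% over the 6 mice. Ppp1r1b-206 starts at another exon and has 474 coding bases, all shared with the main form, which makes it a shorter form of the protein. It was at 19.8, 6.87 and 110 expected counts in N-cre and 3.26, 296 and 13.1 in N-cre;Fox1 mice. N-cre replicate 3 and N-cre;Fox1 replicate 2 again stood apart, where it took 4.94% and 6.91% of the gene, against 0.176% to 0.782% in the other 4 mice. In the same 2 mice the main form was at its lowest share. Ppp1r1b-204 lies wholly within Ppp1r1b-206 and has the same 474 coding bases. Together they took 2.99%, 4.52% and 9.45% in N-cre and 0.176%, 9.20% and 0.551% in N-cre;Fox1 mice, so that these 2 mice were again highest and N-cre replicates 1 and 2 lay between them and the other 2 N-cre;Fox1 mice.

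Rgs9-201, the long form of Rgs9 that is known from striatum (2025 coding bases), took 55.4%, 37.4% and 49.98% in N-cre and 50.6%, 40.2% and 47.3% in N-cre;Fox1 mice. Rgs9-204, with 1452 coding bases and a different end, took 10.9%, 17.2% and 9.59% in N-cre and 13.7%, 13.9% and 14.3% in N-cre;Fox1 mice, and Rgs9-202 took 26.9%, 32.3% and 30.6% against 26.9%, 36.8% and 29.3%. In each genotype replicate 2 had the least of the long form, and the shares of the genotypes overlapped in all 3 forms.

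The remaining isoforms with a mean count of at least 10 were Lhx9-206, Prkcd-201, Prkcd-205, Prkcd-209, Prkcd-210, Prkcd-212, Tcf7l2-202, Tcf7l2-210, Lef1-202, Lef1-204, Ppp1r1b-204, Ppp1r1b-205 and Rgs9-203, and Drd2-201 is the single Drd2 form. Mean counts of these 13 ran from 11.2 to 120.0, and the genotypes overlapped in all 13.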

How the data were processed

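Total RNA from the hippocampi of 6 mice was sequenced in paired reads from stranded libraries. The authors trimmed the reads with cutadapt 1.18, aligned them to mm10 with STAR 2.5.2b and estimated expected counts per GENCODE isoform with RSEM 1.3.0, and these were deposited without normalization. Between 81.9% and 82.7% of the values above 0 are not whole. The genotype and replicate number came from the sample titles. Both the genes and the marker lists were chosen with earlier results of these data known.

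Expected counts were summed by gene symbol and rounded. Features with few counts were left out by edgeR's filterByExpr (version 4.0.16 in R 4.3.3; minimum count 10, minimum total 15). Genotypes were compared after TMM normalization with the quasi-likelihood test, and p was adjusted by Benjamini-Hochberg over all 18924 genes or 50556 isoforms. CPM used TMM library sizes. TPM used isoform lengths from a GENCODE annotation of GRCm38, found for 133445 of 133944 isoforms, which hold at least 99.8% of the counts of each mouse. Positions, exons and Lhx9 sequences came from the same annotation and its transcripts.

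The text names all 9 genes and their isoforms with a mean count of at least 10. Of each marker list it names the genes past the threshold, the 3 with the highest CPM and those needed to show which are near 0. Of the 5 genes most like each regional profile it names those reported here. Slc17a6, Ramp3, Zic1, Syndig1l, Nectin3, Rspo1, Coch, Rbfox1 and the remaining genes of the short mossy cell, endothelial and oligodendrocyte lists were named besides. Likeness was Pearson's r of log2 CPM (prior count 2) over the 6 mice.

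Alternatives were DESeq2's size factors, no filter beyond 1 count, DESeq2 1.42.0 with its Wald test, limma 3.58.1 with voom weights, the replicate number as a block, and each mouse left out in turn. Leaving out both mice with high choroid plexus genes was added after the data were seen. Simulated data had 200 features changed by a factor of 2, drawn only from those above a floor on the mean count. There edgeR recovered 185 of 200 genes (92.5%) among 18924 and 80 of 200 isoforms (40%) among 50556. It called 207 genes and 94 isoforms in total, so the rest of these calls were false. The recovery does not cover features with lower counts. The read pairs assigned to isoforms numbered 40463587 to 62141336 per mouse, with 3 mice per genotype. No source says whether the mice came from separate litters. The values of 1 gene are not reported here.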

Additional observations from a re-analysis of the deposited data

How the results depend on the processing

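The count of 5 genes called between the genotypes became 45 without a filter and 50 with DESeq2's Wald test, 2 to 29 with 1 mouse left out (2 without N-cre replicate 2 and 29 without N-cre;Fox1 replicate 1), and that of isoforms became 10 without a filter and 215 with DESeq2, from 0. In both of the latter Lhx9-205 was called, which is at 0 in every N-cre;Fox1 mouse. None of the 9 genes was called under any of the 12 alternatives. With 1 mouse left out, the fitted log2 fold change turned sign in 5 of the 9 (Prkcd, -0.28 to 0.13; Lhx9, -0.02 to 0.12; Lef1, -0.27 to 0.11; Drd2, -0.35 to 0.05; Ppp1r1b, -0.23 to 0.37) and kept it in Tcf7l2 (0.09 to 0.29), Drd1 (-0.33 to -0.19), Adora2a (-0.74 to -0.53) and Rgs9 (-0.32 to -0.16). That of Drd1 was -0.39 without both mice with high choroid plexus genes, which are its lowest N-cre and its highest N-cre;Fox1 mouse. Of the other striatal genes, 0 to 1 was called with 1 mouse left out (1 without N-cre;Fox1 replicate 2), and 1 without both mice. The median log2 fold change of the other thalamic genes was -0.11 to 0.040 with 1 mouse left out (0.040 without N-cre;Fox1 replicate 1) and -0.13 without both. The cause of these shifts was not tested. With the replicate number as a block, 5 genes and 0 isoforms were called. The labels do not say whether the replicate numbers pair mice across the genotypes. Deviations of same-numbered mice correlated at 0.378, -0.0951 and -0.211. These cannot decide it, as N-cre replicate 3 and N-cre;Fox1 replicate 2, which share high choroid plexus genes, correlated at 0.439. Single isoforms are limited by the 11 of 35 with a mouse at 0, and genes such as Adora2a by counts of about 1 CPM.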

Other observations

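Coch, named after its values were seen, was the hippocampal list gene that differed most between mice. It was at 6.80, 5.81 and 8.58 CPM in N-cre and 3.64, 10.2 and 4.21 CPM in N-cre;Fox1 mice, highest in the 2 mice with the most Ttr.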
